A study of Mus musculus with 6 samples.

Results

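The core circadian clock genes described here are Arntl, Clock, Per2, Per3, Cry1, Cry2, Nr1d1, Nr1d2, Dbp and Tef. They were found by gene symbol among probe sets annotated with exactly 1 symbol, and all 10 were found, of 19938 genes with such a probe set on the array. Each had 1 probe set, so no choice between sets of a gene was needed. Their RNA was measured in mouse bone marrow on 6 Affymetrix gene arrays, 3 labelled wild type and 3 labelled diabetic, as RMA signals on the log2 scale. RMA, robust multi-array averaging, is a method that corrects background and makes the arrays' distributions alike. The genotype label reads BKS.Cg-Dock7m +/+ Leprdb/JNju on the wild type arrays and BKS.Cg-Dock7m -/- Leprdb/JNju on the diabetic arrays, so the strain name in both groups holds the Dock7m and Leprdb alleles and only the +/+ or -/- differs. The db allele of the leptin receptor gene Lepr is the basis of a common mouse model of obesity and type 2 diabetes. Both groups were males of 10 weeks, and their marrow had been flushed from femur and tibia shafts with no sorting step in the labels. Whether an array held 1 animal or a pool, and the hour of day at which marrow was taken, were not stated in the labels. A p-value therefore covers only how these arrays vary, which may be technical.

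The mammalian clock is a feedback loop of transcription. ARNTL (also called BMAL1) and CLOCK pair on E-box elements and switch on the period and cryptochrome genes, whose proteins return to the nucleus and repress that pair. A second loop runs through the nuclear receptors NR1D1 and NR1D2 (REV-ERB alpha and beta), which repress Arntl, and the PAR bZIP factors DBP and TEF carry the rhythm to output genes through D-box elements. The RNA of most of these genes rises and falls over the day in many tissues, and bone marrow, where the release of stem cells and leukocytes follows a daily rhythm, is among the tissues with a clock.

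No clock gene differed between diabetic and wild type marrow past the threshold used, an adjusted p of 0.05 over all 12029 genes tested in limma with Benjamini-Hochberg adjustment. In that fit 0 of 10 clock genes were called, where 0.432% of all genes tested were. The only clock gene with an unadjusted p under 0.05 was Cry1, 1 of 10, against 7.18% of all genes tested, of which 3.98% were higher and 3.2% lower in diabetic marrow. The differences of the 10 genes, diabetic minus wild type, ran from -0.06 for Arntl to 0.22 for Cry1 on the log2 scale. Their median was 0.01, and the median over all genes tested was 0.005. Of the 10 values 6 lay above 0 and 4 below.

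Arrays resembled each other closely, with Pearson correlations from 0.990 to 0.994 over all probe sets and median log2 signals from 7.67 to 7.73. The tissue label was checked on marker lists. Neutrophil and neutrophil precursor markers, 9 genes such as Elane and Mpo, had list means from 13.02 to 13.26, and erythroid markers, 5 of 6 listed genes, from 11.68 to 12.24, while skeletal muscle markers, 4 genes, lay at 7.79 to 7.94. B lineage markers, 7 of 8 listed genes, ran from 10.15 to 11.18 in wild type and from 10.22 to 10.56 in diabetic marrow, with wild type replicate 3 the lowest of the 6 arrays. In such a mixture fewer cells of a type and less RNA per cell cannot be told apart.

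Signals of the clock genes were of middle rank. Single values ran from 7.89 to 8.92, above the level filter of 7.50, and the genes' means lay between the 49.3 and 64.4 percentiles of the named probe sets. The skeletal muscle markers Acta1, Tnnt3 and Ckm also passed this filter, with means of 8.21, 8.14 and 7.98. Arntl, Tef, Dbp, Nr1d2, Per3 and Nr1d1 had means from 7.95 to 8.18, no higher than that of Acta1. Whether muscle RNA was present in the flushed marrow was not tested. Passing the filter is therefore not taken to show that a gene was expressed. How much of a clock gene's signal was probe background was not tested.

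**Figure D1:**
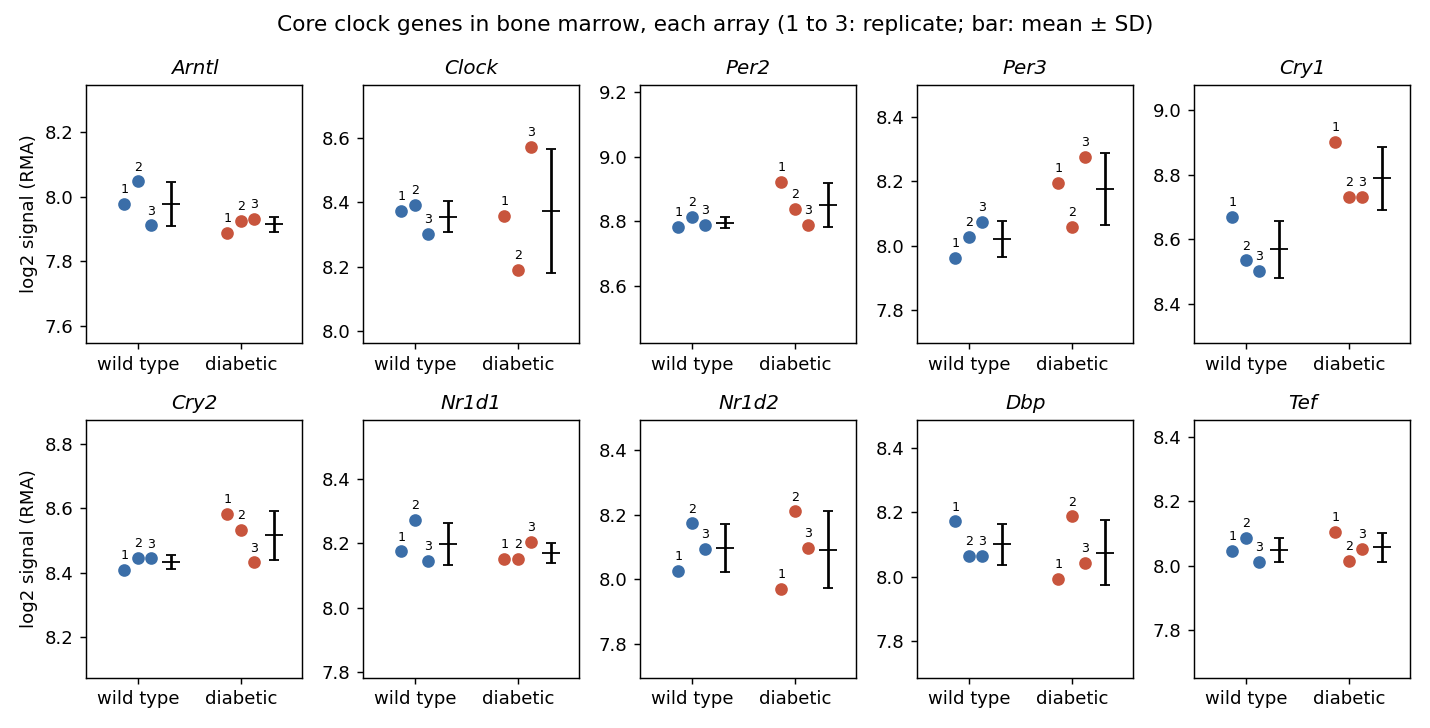
Log2 signal of each of the 10 core clock genes on the 3 wild type arrays (blue) and the 3 diabetic arrays (red), numbered by replicate, with the group mean and its SD as a bar; every panel spans 0.8 log2 units. Only the Cry1 panel shows groups that do not overlap, with wild type values of 8.50 to 8.67 and diabetic values of 8.73 to 8.90.

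Among the repressors, Cry1 encodes a cryptochrome, the main repressor of the ARNTL and CLOCK pair in the late phase of the cycle. Its probe set, 10371400, read 8.67, 8.53 and 8.50 on wild type replicates 1 to 3 and 8.90, 8.73 and 8.73 on the diabetic replicates. All 3 diabetic values lay above all 3 wild type values, although the lowest diabetic and the highest wild type value were close. Such a separation was seen in 1 of 10 clock genes and in 12.4% of all genes tested, 6.97% with the diabetic arrays higher and 5.39% with them lower. The means were 8.57 ± 0.09 and 8.79 ± 0.10 (SD, n = 3 each), a difference of 0.22 ± 0.08 (SE) or 1.17-fold, with a 95% interval from 0.04 to 0.40. This was larger than the spread within either group, but after adjustment over all genes it did not pass, where limma gave an adjusted p of 0.575 and an unadjusted p of 0.0205. When 1 array was left out the difference ran from 0.16 to 0.27, and it was smallest without diabetic replicate 1, the array with the highest Cry1 signal. Its unadjusted p was no longer under 0.05 without wild type replicate 2, wild type replicate 3 or diabetic replicate 1.

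The sequences upstream of Cry1 and Per3, the clock genes with the lowest p-values, and of Per1, a period gene outside the 10, are shown because they differ in which clock elements they hold. Each is the 250 bases before a RefSeq transcript start in build GRCm38.p6, read 5′ to 3′ on the gene's strand, with clock motifs in capitals. The motifs searched, on both strands, were the E-box CACGTG, the related E-prime box CACGTT, the D-box TTATGTAA and the ROR element core TAGGTCA, none of which overlapped another here. Cry1 lies at chr10:85185055-85185304 on the minus strand, Per3 at chr4:151044666-151044915 on the minus strand and Per1, from the first of 2 listed starts, at chr11:69098699-69098948 on the plus strand.
Cry1: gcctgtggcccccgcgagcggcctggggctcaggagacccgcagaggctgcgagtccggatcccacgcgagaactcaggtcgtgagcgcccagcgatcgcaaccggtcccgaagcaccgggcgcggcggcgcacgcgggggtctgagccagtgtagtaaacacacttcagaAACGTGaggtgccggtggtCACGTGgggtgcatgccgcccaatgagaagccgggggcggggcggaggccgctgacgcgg
Per3: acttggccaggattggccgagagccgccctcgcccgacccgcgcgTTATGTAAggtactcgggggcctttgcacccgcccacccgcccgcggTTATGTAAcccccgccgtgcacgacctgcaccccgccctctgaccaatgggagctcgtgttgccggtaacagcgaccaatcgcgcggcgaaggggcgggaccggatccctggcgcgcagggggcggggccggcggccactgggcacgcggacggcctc
Per1: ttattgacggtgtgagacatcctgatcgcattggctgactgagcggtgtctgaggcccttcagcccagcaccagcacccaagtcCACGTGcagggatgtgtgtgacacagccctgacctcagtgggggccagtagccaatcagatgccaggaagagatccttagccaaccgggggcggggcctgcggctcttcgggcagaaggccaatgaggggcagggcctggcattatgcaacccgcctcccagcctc

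The Cry1 window holds an E-prime box that begins 79 bases before the start and an E-box that begins 60 bases before it. Per3 carries 2 copies of the D-box, 205 and 158 bases before the start, and the Per1 window shown carries an E-box 166 bases before it. The window of the second Per1 start holds none of the motifs. Of 32851 promoter windows of the same length in the RefSeq table, 6.02% hold the E-box, 3.85% the E-prime box, 0.819% the D-box and 2.23% the ROR element core. Of the 9 clock genes with a promoter in that table, Cry1 and Tef held the E-box, Cry1, Cry2 and Nr1d1 the E-prime box and Per3 the D-box, and 0 held the ROR element core. Per2 is not in it. Clock, Arntl and Tef have several windows and were counted by gene, whereas the shares above are by window. A match describes these letters in this window and shows no binding.

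Per3, the period gene whose loss alters the mouse rhythm least, had the next lowest p. Wild type arrays read 7.96, 8.03 and 8.07 and diabetic arrays 8.20, 8.06 and 8.28 (probe set 10518781). Diabetic replicates 1 and 3 stood above all wild type values, and diabetic replicate 2 fell inside the wild type range. The difference was 0.16 ± 0.07 (SE, n = 3 per group) with a 95% interval from -0.01 to 0.33 and a limma adjusted p of 0.740. Without diabetic replicate 3 it was 0.11, and without diabetic replicate 2 it was 0.21.

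Per2, a period gene whose protein carries cryptochromes into the nucleus, was among the steadiest of the 10. Its probe set, 10356601, read 8.78, 8.81 and 8.79 in wild type and 8.92, 8.84 and 8.79 in diabetic marrow. The groups overlapped through diabetic replicate 3, and the difference of 0.05 ± 0.06 (SE, n = 3 per group) was within its error. Cry2, the second cryptochrome, showed a like arrangement, with 8.41, 8.45 and 8.44 in wild type and 8.58, 8.53 and 8.43 in diabetic marrow (probe set 10485170). Here too diabetic replicate 3 lay inside the wild type range and the other diabetic values above it. Its difference was 0.08 ± 0.06, with a 95% interval from -0.06 to 0.23.

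The activators came next. Arntl, without which the mouse clock stops, read 7.98, 8.05 and 7.91 in wild type and 7.89, 7.92 and 7.93 in diabetic marrow (probe set 10556463). Wild type replicates 1 and 2 were the highest of the 6 arrays, and wild type replicate 3 fell among the diabetic values. The difference was -0.06 ± 0.06 (SE, n = 3 per group), with a 95% interval from -0.20 to 0.08.

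Clock, the partner of Arntl, had the widest spread of the 10 genes. It read 8.37, 8.39 and 8.30 in wild type and 8.36, 8.19 and 8.57 in diabetic marrow (probe set 10530733), so that diabetic replicates 2 and 3 were the lowest and the highest of all 6 arrays. Wild type arrays had an SD of 0.05 and diabetic arrays one of 0.19, and the difference of means was 0.02 ± 0.10 (SE, n = 3 per group). Diabetic replicate 2 also had the lowest mean of the neutrophil markers, 13.02 against 13.14 to 13.26 on the other 5 arrays. Erythroid marker means were highest on wild type replicate 3 and diabetic replicate 2, the arrays with the lowest Clock values. They were 12.24 and 12.13 there, against 11.68 to 11.84 on the other arrays. Diabetic replicate 3 had the highest mean of the T and NK cell markers, 4 of 5 listed genes, at 8.98, with wild type replicate 2 close at 8.95 and the lowest array at 8.47. The part of these marker lists in the Clock values, and in the Per3 value of diabetic replicate 2, was not tested.

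The repressor receptors of the second loop showed no difference beyond their spread. Nr1d1 read 8.17, 8.27 and 8.15 in wild type and 8.15, 8.15 and 8.20 in diabetic marrow (probe set 10390691), with a difference of -0.03 ± 0.06 (SE, n = 3 per group). Nr1d2 read 8.03, 8.17 and 8.09 in wild type and 7.97, 8.21 and 8.10 in diabetic marrow (probe set 10417734). Diabetic replicates 1 and 2 were thus the lowest and the highest Nr1d2 arrays, and the difference was -0.01 ± 0.08. The 95% intervals ran from -0.17 to 0.11 for Nr1d1 and from -0.19 to 0.18 for Nr1d2.

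The output factors were as close between the groups. Dbp, often the clock output with the strongest daily swing in mouse tissues, read 8.17, 8.06 and 8.06 in wild type and 7.99, 8.19 and 8.04 in diabetic marrow (probe set 10553092). Diabetic replicates 1 and 2 again were the extremes, and the difference was -0.03 ± 0.07 (SE, n = 3 per group) with a 95% interval from -0.19 to 0.14. Tef, its relative in the PAR bZIP family, read 8.05, 8.09 and 8.01 in wild type and 8.10, 8.01 and 8.05 in diabetic marrow (probe set 10425601), a difference of 0.01 ± 0.06. Tef had the smallest spread within groups of the 10, an SD of 0.04.

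The plot of differences shows what sizes of signal difference the data leave room for. How far a signal difference follows the RNA difference near background was not tested. Over the 10 genes the 95% intervals, taken gene by gene, reached down to -0.21 and up to 0.40 on the log2 scale. These bounds are a signal 1.15-fold lower, set by Clock, and 1.32-fold higher, set by Cry1. Spreads within groups ran from an SD of 0.04 for Tef to 0.14 for Clock, with a median of 0.07 for the 10 genes and 0.09 for all genes tested. A p that misses the threshold does not show equal levels.

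**Figure D2:**
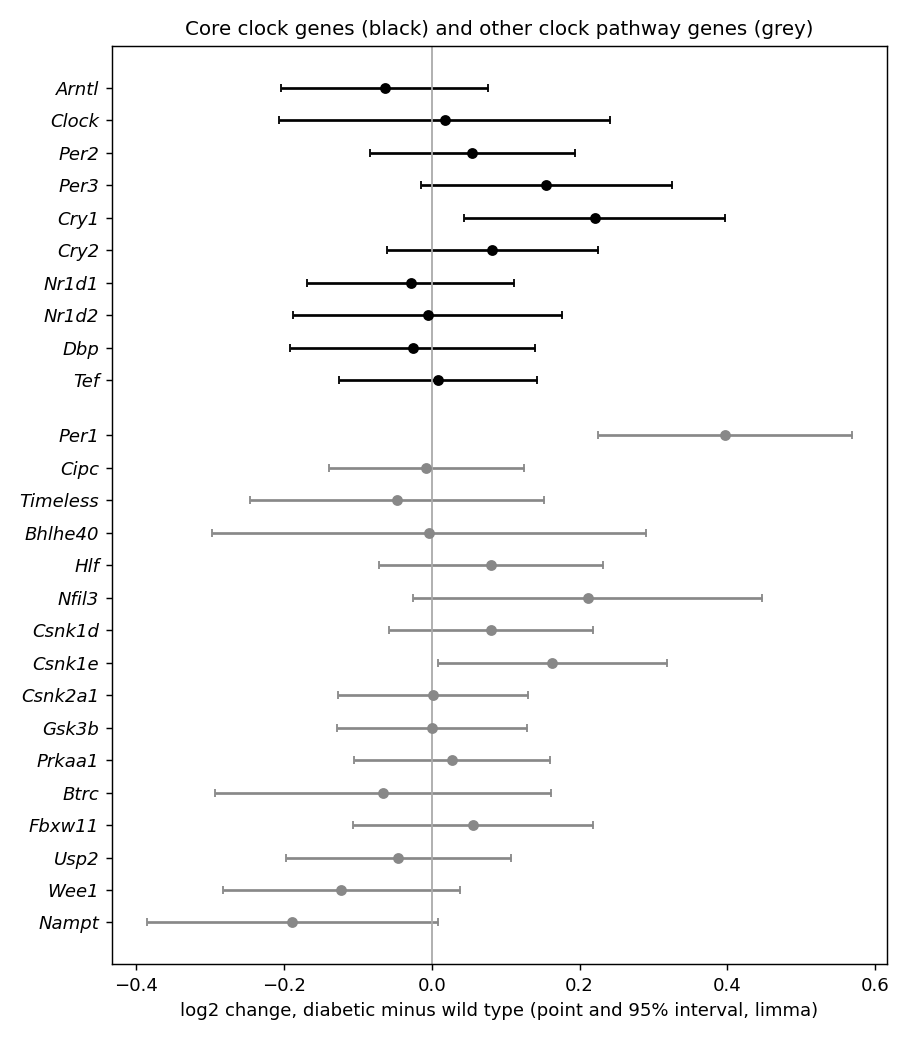
Difference in log2 signal, diabetic minus wild type, with its 95% interval from limma, for the 10 core clock genes (black) and the 16 other clock pathway genes tested (grey). Among the black points only the interval of Cry1, 0.04 to 0.40, lies above 0, and among the grey points those of Per1, 0.23 to 0.57, and Csnk1e, 0.01 to 0.32.

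Other genes of the pathway were taken from a list of 26 written from general knowledge of the clock. Of these, 22 had a probe set with 1 symbol, 16 passed the level filter and 6 lay below it. None of the 16 passed the adjusted threshold in limma with Benjamini-Hochberg adjustment, and 2 had an unadjusted p under 0.05, Per1 and Csnk1e, both higher in diabetic marrow. That is to be read beside the 7.18% of all genes tested that had such an unadjusted p in either direction, 3.98% of them higher and 3.2% lower in diabetic marrow. Their differences ran from -0.19 for Nampt to 0.40 for Per1, with a median of 0.001.

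Per1, the third period gene, is also switched on directly by glucocorticoids and by other acute stimuli. It read 9.15, 9.33 and 9.21 in wild type and 9.53, 9.67 and 9.68 in diabetic marrow (probe set 10377439). The groups did not overlap, and the difference was 0.40 ± 0.07 (SE, n = 3 per group) or 1.32-fold, with a limma adjusted p of 0.106. Glucocorticoid response markers, 7 genes of which 5 had a positive difference and 1, Dusp1, passed the adjusted threshold, had list means of 9.38 to 9.53 in wild type and 9.65 to 9.82 in diabetic marrow. Fkbp5 and Klf9 of that list went the other way, at -0.07 and -0.14 with overlapping groups. The listed immediate early genes Fos, Fosb, Jun, Junb, Egr1, Ier2 and Atf3 all had a positive difference. Their list means were 8.34 to 8.75 in wild type and 8.39 to 9.21 in diabetic marrow. Cell type markers also stood lower or higher in diabetic marrow. All 7 B lineage markers had a negative difference, with a mean of -0.38 over the list and overlapping groups. Adipocyte markers, 4 genes of which Adipoq lay below the level filter, had list means of 7.589 to 7.668 in wild type and 7.704 to 7.835 in diabetic marrow. Lpl had the largest difference of the 4, 0.31, and was the only one with groups that did not overlap. Adipoq, Cidec and Plin1 were at 0.11, 0.05 and -0.02. Of the 3 osteoblast markers with a probe set, Alpl was at -0.38 with groups that did not overlap, and it did not pass. Col1a1 and Sp7, the latter below the level filter, went the other way, at 0.10 and 0.02 with overlapping groups. The macrophage genes C1qa and C1qb, picked out after their values were seen, differed by -0.32 and -0.62 with groups that did not overlap, and neither passed the adjusted threshold. Such a separation with the diabetic arrays lower was seen in 5.39% of all genes tested. In the same list F13a1 and Adgre1 went the other way, at 0.28 and 0.27 with overlapping groups, and Csf1r was at -0.01. The list of C1qa and C1qb, 5 of 6 monocyte and macrophage markers, had overlapping means of 10.55 to 10.80 and 10.53 to 10.67. For Cry1 and for Per1 the part of these marker lists in the result was not tested.

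Csnk1e, a casein kinase that marks period proteins for breakdown, read 10.49, 10.53 and 10.35 in wild type and 10.64, 10.59 and 10.63 in diabetic marrow (probe set 10430519). The groups did not overlap, with a difference of 0.16 ± 0.07 (SE, n = 3 per group) and a limma adjusted p of 0.671. Its unadjusted p stayed under 0.05 in only 1 of the 6 fits that left out an array, the one without wild type replicate 2, and it was 0.0589 after further quantile normalization, 0.0638 with the replicate block and 0.0530 with gene-by-gene weights in limma. Without wild type replicate 3 the difference was 0.11, against 0.16 with all arrays. Of the 8 tested kinases, ligases and other regulators of clock protein turnover, 6 had a positive difference, and their median was 0.01. Of the 4 tested repressors and modulators 1 had a positive difference, Per1. Hlf and Nfil3, the tested members of the ROR and PAR bZIP arm, had differences of 0.08 ± 0.07 and 0.21 ± 0.10. The rhythmic outputs Wee1 and Nampt were at -0.12 ± 0.07 and -0.19 ± 0.08, and none of these 4 passed. For Nampt, the enzyme that makes the NAD precursor nicotinamide mononucleotide, the diabetic values lay below all wild type values. Arntl2, Ciart, Bhlhe41, Rora, Rorb and Fbxl21 were below the filter.

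Since paralogs or partners can respond apart, the difference between 2 genes on the same array was compared between the groups for 6 pairs. The Cry1 minus Cry2 difference changed by 0.14 (two-sided exact permutation test over arrays, p = 0.2, n = 3 per group). Per3 minus Per2 changed by 0.10 (exact p = 0.4), Nr1d1 minus Nr1d2 by -0.02 (exact p = 0.9), Dbp minus Tef by -0.03 (exact p = 0.8) and Arntl minus Clock by -0.08 (exact p = 0.7). For Per1 minus Per2 the 6 arrays did not overlap, with 0.37, 0.52 and 0.42 in wild type and 0.60, 0.83 and 0.89 in diabetic marrow. That change of 0.34 had an exact p of 0.1, the smallest that 3 arrays against 3 can give, and 0.6 after Benjamini-Hochberg adjustment over the 6 pairs. No pair could therefore have passed 0.05, and the pairs were chosen with earlier values known.

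**Figure D3:**
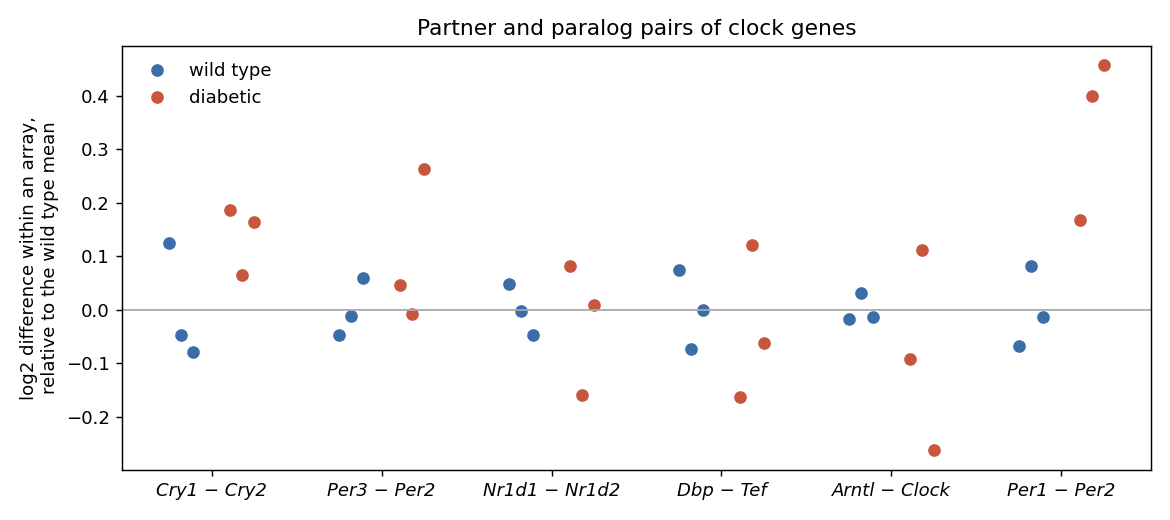
Difference in log2 signal between 2 clock genes on the same array, shown relative to the wild type mean of that pair, for 3 wild type arrays (blue) and 3 diabetic arrays (red), replicates 1 to 3 from left to right. The groups overlap in 5 pairs and are apart for Per1 minus Per2, where the diabetic mean lies 0.34 above the wild type mean.

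The genes whose pattern over the 6 arrays was most like that of Cry1 were Ankrd46, Clec12a and Pald1, with Pearson r of 0.987, 0.985 and 0.984. For Per3 they were Gtf2ird1, Orm1 and Gcnt2, with r of 0.996, 0.992 and 0.989. These are the highest of 12019 other genes over only 6 arrays, which share hybridisation and normalization, and 130 genes for Cry1 and 193 for Per3 had an r over 0.9. The differences of the 6 named genes ran from 0.07 for Pald1 to 0.33 for Orm1, and none passed the adjusted threshold. Clec12a, a lectin of myeloid cells, was at 11.57 to 11.64 in wild type and 11.70 to 11.78 in diabetic marrow.

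The table of RefSeq genes shows 3 clock genes that overlap a protein-coding gene, Nr1d1 with Thra, Dbp with Sphk2 and Per3 with Uts2. Thra, the thyroid hormone receptor alpha gene, had a difference of 0.17 ± 0.08 (SE, n = 3 per group) where Nr1d1 had -0.03. Sphk2, a sphingosine kinase, was at -0.11 ± 0.05 with groups that did not overlap, 9.44 to 9.48 in wild type and 9.31 to 9.37 in diabetic marrow. Uts2, a urotensin gene, lay below the level filter, at 7.11 to 7.31. None of them passed the adjusted threshold, and whether a probe of either gene of a pair reads the other was not tested.

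**Figure D4:**
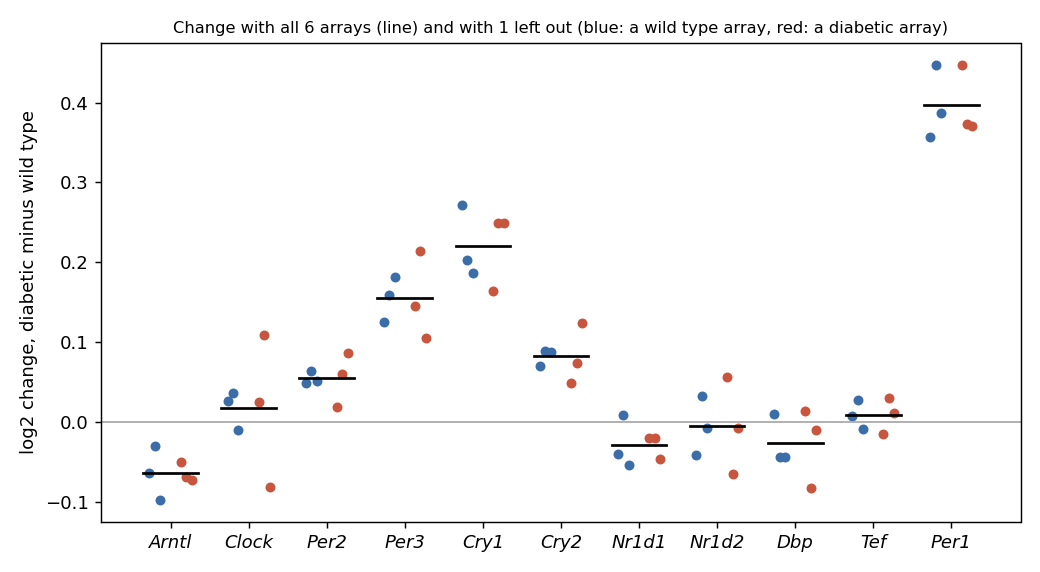
Difference in log2 signal, diabetic minus wild type, with all 6 arrays (black line) and with 1 array left out (blue point for a wild type array, red for a diabetic array, replicates 1 to 3 from left to right). Cry1 stays between 0.16 and 0.27 and Per1 between 0.36 and 0.45, while Clock, Nr1d1, Nr1d2, Dbp and Tef have points on both sides of 0.

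In each of the 6 fits that left out an array 0 clock genes passed, and Cry1, Per2, Per3 and Cry2 kept a positive and Arntl a negative difference. Clock, Nr1d1, Nr1d2, Dbp and Tef, with the smallest differences, took both signs. Sizes also moved where the sign was kept. Per2 ran from 0.02 without diabetic replicate 1 to 0.09 without diabetic replicate 3, and Cry2 from 0.05 to 0.12 without the same arrays. Arntl ran from -0.03 without wild type replicate 2 to -0.10 without wild type replicate 3. With limma's array weights 3 passed, Cry1 and Per3 higher and Arntl lower. That estimate of weights did not converge and gave wild type replicate 2 a weight of 11.7 and wild type replicate 3 one of 0.251, and it called 1878 genes in all. With weights estimated gene by gene 0 clock genes passed.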

How the data were processed

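The authors deposited log2 signals per probe set, made with RMA. Affymetrix Expression Console is the software that the submitters' processing notes name, and its version and the genome build were not stated there. The labels' protocols describe Trizol and column extraction, whole-transcript amplification and biotin labelling. The deposited table held 35556 probe sets, of which 21789 had 1 gene symbol, 1621 several and 12146 none in the platform annotation. A gene with several sets was represented by the brightest on average, and 12029 of 19938 genes passed a level filter, a mean no lower than the 40th percentile over all named probe sets, 7.50. Diabetic and wild type arrays were compared over these genes by limma 3.58.1 (lmFit, eBayes; R 4.3.3). The model held only the group, p-values had Benjamini-Hochberg adjustment, and the script was tested on simulated data. Intervals cover 95% and are not adjusted. With 3 arrays per group, array number limits precision.

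Promoters came from RefSeq tables of GRCm38.p6, and plots were made in Python 3.11.15 with matplotlib 3.10.9. The clock genes, the lists and the rule for named genes were chosen with earlier results of these data known. That rule took all 10 clock genes, other pathway genes with an unadjusted p under 0.05, Per1, the 3 genes most like each of 2 clock genes, and overlapping genes. Marker genes were named as list members. Alternatives were other level filters, median centring, a further quantile normalization, averaging a gene's probe sets, trend and robust eBayes, array weights, a replicate block and leaving out each array, and, after seeing the data, gene-by-gene array weights.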

Additional observations from a re-analysis of the deposited data

How the results depend on the processing

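Of 15 alternatives, 14 called 0 clock genes and limma's default array weights called 3, with Arntl at -0.14, Per3 at 0.17 and Cry1 at 0.31. With those weights 6 clock genes and 8 other pathway genes had an unadjusted p under 0.05, 1878 genes passed in all, Clock was at -0.0184 and Per1, at 0.25, passed. The share of all genes with such an unadjusted p was not counted in any alternative. These counts and those below are therefore no result about the clock genes. Gene-by-gene weights, chosen after seeing the data, gave 2 clock genes and 4 other pathway genes at an unadjusted p under 0.05 and 172 calls in all. When 1 array was left out, calls over all genes ran from 3 to 70, clock genes with an unadjusted p under 0.05 from 0 to 2, other pathway genes from 1 to 3, and the median difference of the clock genes from -0.00824 to 0.0451. Differences then ran from -0.0818 to 0.109 for Clock, from -0.0541 to 0.00864 for Nr1d1, from -0.0646 to 0.0558 for Nr1d2, from -0.0823 to 0.0144 for Dbp and from -0.0148 to 0.0301 for Tef, each on both sides of 0. The 60th percentile filter left Cry1 and Per2 as the only clock genes tested, with a median of 0.14. Further quantile normalization put Tef at -0.0045 and left 1 other pathway gene with an unadjusted p under 0.05, and median centring put Tef at -0.0018. The cause of these shifts was not tested. With the replicate block 2 genes passed in all, 0 of them clock genes, and 1 other pathway gene had an unadjusted p under 0.05. Same-numbered arrays had correlations of 0.327, -0.0428 and -0.0549 between deviations from group means for replicates 1, 2 and 3. That of replicate 1 was the highest of all wild type and diabetic combinations. Deviations within a group sum to 0, so these values cannot show or exclude a pairing. The labels do not say that same-numbered arrays share an animal or day, so the numbers were not taken as a pairing. Adjusted p in limma ran from 0.00502 to 0.999 for Cry1 over all alternatives. RMA removes a shift shared by most genes.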
